A study of Mus musculus with 6 samples.

Results

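The smooth muscle contractile genes *Acta2*, *Tagln*, *Myl9*, *Cnn1*, *Lmod1* and *Smtn* were examined in mice at postnatal day 6 (P6, infant) and postnatal day 56 (P56, adult). They are 6 of the 312 genes in the deposited table and were picked by name, with their levels and their difference between the ages already known from earlier work on this table. RNA was sequenced in 3 libraries per age, and no treatment or genetic change is named for either age. In the paper the material is inguinal adipose tissue (iAT) of the inbred mouse strain C57BL/6, but according to the labels it is macrophages of adipose tissue, that is, phagocytes living in fat. None of the 19 genes of a macrophage list and none of the 15 genes of an adipocyte list is in the table, so neither description could be checked against its markers. The study used mice of both sexes, but no source used here gives the sex behind each library or says whether a library pools several animals.

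Smooth muscle cells lie in the walls of blood vessels and shorten by sliding actin over myosin in a cytoplasm without sarcomeres. Pericytes, the cells that wrap capillaries, and myofibroblasts share part of this machinery, and fat contains all of these cells within its vessels and stroma. *Acta2* encodes the alpha actin of smooth muscle, the thin filament itself, and *Myl9* encodes the regulatory light chain of myosin, whose phosphorylation switches contraction on. *Tagln* (transgelin) and *Cnn1* (calponin 1) encode proteins that bind the thin filament, and calponin slows the myosin ATPase. *Lmod1* (leiomodin 1) nucleates actin filaments in smooth muscle, and *Smtn* (smoothelin) encodes an actin-associated protein of contractile cells. Many genes of this programme are switched on by serum response factor (SRF), which binds the CArG box, and by TEAD factors, which bind CATTCC.

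The stretch of 250 bases before the start site is given for *Acta2*, *Myl9*, *Lmod1* and *Cnn1*, because SRF and TEAD sites are a known feature of this gene class and these genes span the differences between the ages, from *Cnn1* at one end to *Lmod1* at the other. Capitals mark a CArG box with at most 1 mismatch, or CATTCC on either strand (written GGAATG on the opposite strand), and no marked stretch overlaps another. The sequences are from RefSeq on GRCm38.p6 and read 5′ to 3′ on the strand of the gene. They lie at chr19:34255374-34255623 (minus strand) for *Acta2*, chr2:156775214-156775463 (plus strand) for *Myl9*, chr1:135324563-135324812 (plus strand) for *Lmod1* and chr9:22099003-22099252 (plus strand) for *Cnn1*.
Acta2: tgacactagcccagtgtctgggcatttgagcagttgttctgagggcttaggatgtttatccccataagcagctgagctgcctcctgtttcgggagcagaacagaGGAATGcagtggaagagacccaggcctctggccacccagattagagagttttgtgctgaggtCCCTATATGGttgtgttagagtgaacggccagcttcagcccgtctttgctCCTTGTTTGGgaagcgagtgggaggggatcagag
Myl9: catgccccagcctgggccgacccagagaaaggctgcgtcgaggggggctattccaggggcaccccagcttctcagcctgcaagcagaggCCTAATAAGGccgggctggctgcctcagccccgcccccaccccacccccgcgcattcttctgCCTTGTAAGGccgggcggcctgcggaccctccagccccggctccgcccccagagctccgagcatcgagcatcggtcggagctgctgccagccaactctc
Lmod1: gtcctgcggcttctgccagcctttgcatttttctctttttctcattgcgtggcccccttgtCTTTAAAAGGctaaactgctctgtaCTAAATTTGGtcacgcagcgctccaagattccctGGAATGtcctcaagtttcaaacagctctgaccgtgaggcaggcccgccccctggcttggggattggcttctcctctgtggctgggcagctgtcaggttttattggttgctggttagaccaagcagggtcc
Cnn1: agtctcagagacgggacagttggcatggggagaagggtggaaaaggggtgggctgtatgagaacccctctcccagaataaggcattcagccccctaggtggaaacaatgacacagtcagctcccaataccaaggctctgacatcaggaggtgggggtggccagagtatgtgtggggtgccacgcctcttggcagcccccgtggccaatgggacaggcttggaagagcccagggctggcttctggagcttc

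A sequence was at hand for 5 of the 6 genes. *Myl9* holds a full CArG box, CCTAATAAGG, beginning 161 bases before its start site, and was the 1 window of the 5 with a full match. Full matches stand in 1.47% of 32851 windows of the same length and in 3.42% of the 322 windows of 245 listed genes. With at most 1 mismatch allowed, *Acta2*, *Lmod1* and *Myl9* hold a match, as do 18.6% of all windows and 22.7% of those of listed genes. The *Acta2* match CCCTATATGG begins 84 bases before the start site. CATTCC stands in the windows of *Acta2*, *Lmod1* and *Smtn*, in 12.6% of all windows and in 15.2% of those of listed genes. *Cnn1* holds neither motif in this window, also with 1 mismatch allowed in the CArG box. *Lmod1* holds CATTCC and CArG matches with 1 mismatch, but no full CArG box. A match describes letters in a short window and says nothing of binding.

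Levels are given as TPM, each transcript's share of all transcripts of a library corrected for length, which allows genes to be compared with each other. Differences between the ages are given on counts scaled to the depth of the whole libraries, estimated as the median, over 196 genes, of count divided by FPKM (fragments scaled for transcript length and depth). Relative to its mean, this depth ranged from 1.09 to 1.16 at P6 and from 0.796 to 0.938 at P56. At this depth 198 of 310 tested genes differed between the ages (edgeR's quasi-likelihood test, Benjamini-Hochberg adjusted p under 0.05), which is 63.9% of them. At P6, 30.3% of the tested genes were higher and 33.5% were lower. The deposited list is named as one of differential genes, so these shares may come from genes preselected on this contrast. The log2 ratio of P6 to P56 had a median of −0.02 over the tested genes. P56 replicate 3 stood apart, with an SD of 0.21 across genes in its log2 deviation from its age, against 0.10 to 0.16 in the other 5 libraries. Nothing in the labels says that the libraries come from separate animals, so p-values measure the spread between these libraries.

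The 6 genes covered a wide range of levels and of differences. *Myl9*, *Acta2* and *Tagln* were among the most abundant of the listed genes, *Smtn* followed, and *Cnn1* and *Lmod1* were scarce. *Cnn1* was higher at P6 about 4-fold, and *Acta2*, *Myl9* and *Tagln* less so. *Tagln*, *Smtn* and *Lmod1* had overlapping values at the ages. Since the contrast was known when the genes were picked, these differences are a description and carry no test of their own.

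The thin filament gene *Acta2* (gene ID 11475) had 608, 405 and 453 TPM in P6 replicates 1 to 3 and 310, 263 and 318 TPM in the P56 replicates. All P6 values lay above all P56 values, and the highest was that of P6 replicate 1. Its mean TPM was 489 ± 106 at P6 and 297 ± 29.5 at P56 (SD, n = 3). The log2 fold change of *Acta2* on depth-scaled counts was 0.84 (standard error 0.14). The coding sequences of the actin genes are closely related, so reads may be shared between *Acta2* and its paralogs, although all of its counts were whole.

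*Myl9* (gene ID 98932), the myosin light chain, had 579, 418 and 479 TPM at P6 and 394, 306 and 349 TPM at P56. The ages did not overlap, although the lowest P6 library stood only slightly above the highest P56 library. *Myl9* and *Acta2* had nearly the same mean level at P6, 492 ± 81.3 and 489 ± 106 TPM (SD, n = 3), and did not differ beyond their spread. At P56 *Myl9* was the most abundant of the 6 genes, with 349 ± 44.1 TPM against 297 ± 29.5 TPM for *Acta2* (SD, n = 3). Their ranges overlapped, but within each P56 library *Myl9* lay above *Acta2*, at 127%, 116% and 110% of it. *Tagln* lay below *Acta2* in every library of both ages. The log2 fold change of *Myl9* on depth-scaled counts was 0.61 (standard error 0.13).

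Transgelin, encoded by *Tagln* (gene ID 21345), had 369, 246 and 266 TPM at P6 and 240, 221 and 262 TPM at P56. P6 replicate 1 was far above the other libraries, and P6 replicate 2 lay within the P56 range. The mean TPM was 294 ± 66.1 at P6 and 241 ± 20.6 at P56 (SD, n = 3). On depth-scaled counts *Tagln* had a log2 fold change of 0.40 (standard error 0.14), and 0.21 without P6 replicate 1.

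Calponin 1, encoded by *Cnn1* (gene ID 12797), had 35.1, 20.7 and 23.4 TPM at P6 and 6.71, 6.57 and 7.58 TPM at P56. Each P6 library held more than any P56 library by a wide margin. In reads, this was 390, 224 and 275 counts at P6 and 56, 53 and 58 counts at P56. The mean of depth-scaled counts was 4.10 times as high at P6, and the log2 fold change was 2.04 (standard error 0.21), the 13th highest of the 310 tested genes. The P56 libraries of *Cnn1* were close to each other, with an SD of 0.547 TPM around a mean of 6.95 TPM, whereas the P6 libraries had an SD of 7.71 TPM around a mean of 26.4 TPM.

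Smoothelin, encoded by *Smtn* (gene ID 29856), had 162, 144 and 143 TPM at P6 and 162, 141 and 131 TPM at P56. The ages overlapped and the highest library of each age had nearly the same value. The log2 fold change on depth-scaled counts was 0.16 (standard error 0.09), and relative to its mean *Smtn* had the smallest spread of the 6 genes at P6, with an SD of 10.5 TPM around a mean of 150 TPM.

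Leiomodin 1, encoded by *Lmod1* (gene ID 93689), had 14.5, 10.2 and 9.93 TPM at P6 and 18.3, 11.9 and 13.8 TPM at P56. The ages overlapped, with replicate 1 the highest at each age. *Lmod1* alone of the 6 genes had a negative log2 fold change on depth-scaled counts, −0.22 (standard error 0.18). With library sizes set equal, so that the deeper sequencing at P6 is not corrected for, its log2 fold change was 0.14. In the other 15 alternatives it stayed negative, from −0.41 to −0.06.

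**Figure D1:**
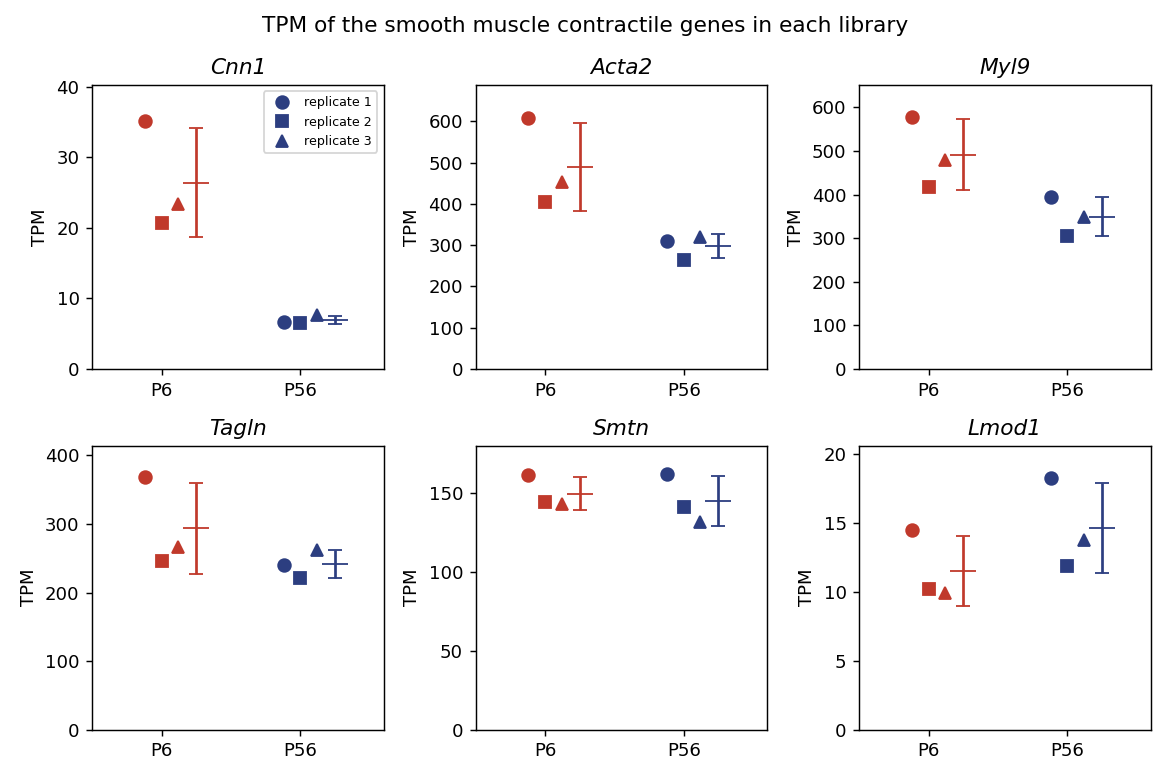
TPM of each gene (vertical axis, linear and starting at 0) in the 3 P6 libraries (red) and the 3 P56 libraries (blue), with circles, squares and triangles for replicates 1, 2 and 3 and a bar for the mean ± SD. *Cnn1*, *Acta2* and *Myl9* do not overlap between the ages, *Tagln*, *Smtn* and *Lmod1* do, and P6 replicate 1 is the highest P6 library of every gene.

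By the edgeR threshold, 4 of the 6 genes (*Acta2*, *Tagln*, *Myl9* and *Cnn1*) were higher and 0 were lower at P6, beside 30.3% and 33.5% of all tested genes. In 3 of the 6 genes all depth-scaled counts of P6 lay above those of P56, beside 33.9% of the tested genes. The median log2 fold change of the 6 genes was 0.51. With limma on log2(TPM + 1) the median of all tested genes was −0.14 in place of −0.02. On this TPM scale the log2 fold change was 1.75 for *Cnn1*, 0.70 for *Acta2*, 0.49 for *Myl9*, 0.26 for *Tagln*, 0.05 for *Smtn* and −0.32 for *Lmod1*, each lower than at the recovered depth. With log2(TPM + 0.1) that of *Cnn1* was 1.87. *Tagln* passed the threshold at the recovered depth but not on this TPM scale, and not without P6 replicate 1 or without P56 replicate 2. In a bulk library, fewer cells of a type and less RNA per cell cannot be told apart.

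The proportions of the genes to each other differed between the ages. A ratio between genes of the same library does not depend on its depth or on the scaling, so *Acta2* was taken as the reference and the TPM of each other gene was expressed as a percentage of it. *Cnn1* reached 5.78%, 5.10% and 5.16% of *Acta2* at P6 and 2.17%, 2.49% and 2.38% at P56. *Tagln* reached 60.7%, 60.7% and 58.8% at P6 and 77.5%, 84.0% and 82.4% at P56. *Cnn1* was thus a larger and *Tagln* a smaller fraction of *Acta2* at P6, in every library.

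The remaining ratios also separated the ages. *Lmod1* stood at 2.36% ± 0.160 of *Acta2* at P6 and at 4.91% ± 0.861 at P56 (SD, n = 3). *Smtn* stood at 31.2% ± 4.52 at P6 and at 49.0% ± 6.78 at P56 (SD, n = 3). *Myl9* stood at 101% ± 5.56 at P6 and at 118% ± 8.89 at P56 (SD, n = 3), with its lowest P56 library at 110% and its highest P6 library at 106%. For all 5 genes the P6 libraries did not overlap the P56 libraries, beside 72.5% of the 309 tested genes that could be set against *Acta2* in the same way. *Acta2* was itself higher at P6, so a gene with the same level at both ages, such as *Smtn*, is a smaller percentage of it at P6. All P6 ratios lay below all P56 ratios in 65.7% of the tested genes, as in *Tagln*, *Myl9*, *Smtn* and *Lmod1*, and above them in 6.8%, as in *Cnn1*.

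Among the libraries of an age, the ratios of 4 of the 5 genes varied less than the levels. For *Tagln* the SD among the P6 libraries was 22.5% of the mean for the level and 1.84% for the ratio to *Acta2*. For *Cnn1* it was 29.2% for the level and 7.05% for the ratio. At P56 it was 8.52% and 4.16% for *Tagln*, but nearly the same for *Cnn1*, 7.87% and 7.04%. *Smtn* was the exception, with 7.01% for the level and 14.5% for the ratio at P6, and 10.8% and 13.8% at P56. All 6 genes together held 1767, 1244 and 1374 TPM at P6 and 1130, 950 and 1082 TPM at P56, of which *Acta2* made up 33.3% ± 0.972 at P6 and 28.2% ± 1.08 at P56 (SD, n = 3).

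**Figure D2:**
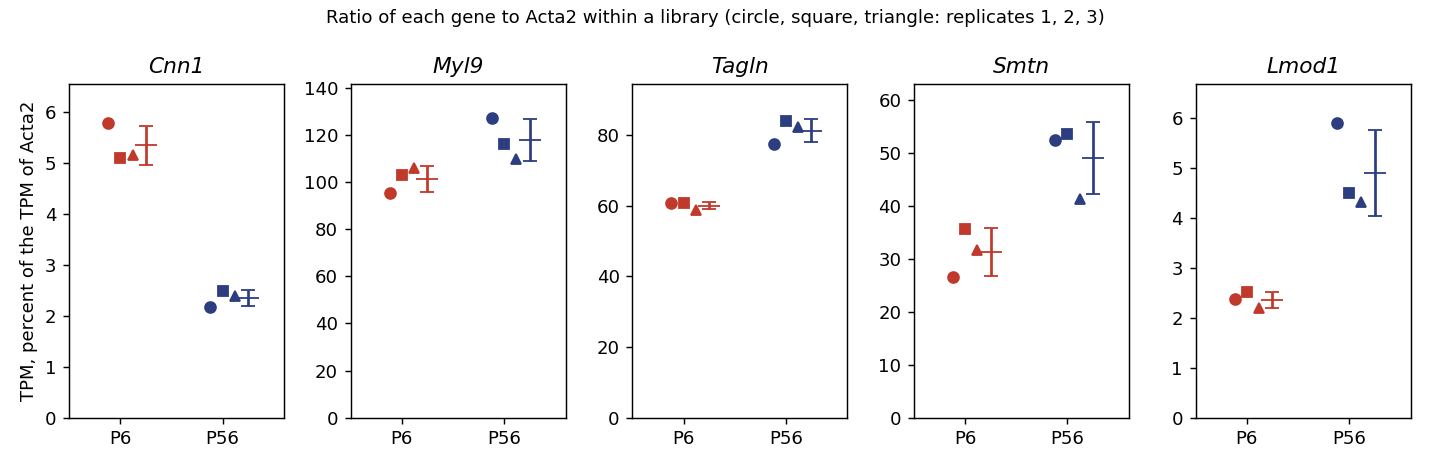
TPM of 5 genes as a percentage of the TPM of *Acta2* in the same library (vertical axis, linear and starting at 0), for P6 (red) and P56 (blue), with the mean ± SD beside the replicates. *Cnn1* is higher at P6 (5.34% against 2.35%) and the other 4 genes are higher at P56. The ages do not overlap in any panel, as in 72.5% of the tested genes set against *Acta2*, which is itself higher at P6.

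P6 replicate 1 was the highest P6 library for all 6 genes. Relative to the mean of P6 replicates 2 and 3, its depth-scaled count was 1.57 times as high for *Cnn1*, 1.41 times for *Tagln* and *Lmod1*, 1.39 times for *Acta2*, 1.27 times for *Myl9* and 1.09 times for *Smtn*. Among the log2 deviations of the 310 tested genes from their P6 mean in this library, *Cnn1*, *Tagln*, *Lmod1* and *Acta2* ranked 4, 7, 8 and 9, *Myl9* ranked 17 and *Smtn* ranked 65. The median deviation was 0.32 for the 6 genes and 0.02 for all tested genes, of which the middle 90% lay between −0.12 and 0.23. On depth-scaled counts P6 replicate 2 was the lowest P6 library for 5 of the 6 genes, the exception being *Lmod1*, whose P6 replicates 2 and 3 were nearly equal. In TPM, P6 replicate 3 was the lowest for *Smtn* as well.

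The genes ranking around these in P6 replicate 1 were looked up after this pattern had been seen. *Rspo3*, a secreted activator of Wnt signalling, ranked 1 with 5.69 TPM in P6 replicate 1 and 3.28 and 3.12 TPM in P6 replicates 2 and 3. *Mgp*, which encodes matrix Gla protein, an inhibitor of calcification, ranked 3 with 124, 62.8 and 93.1 TPM. The log2 fold change of P6 over P56 was 2.51 for *Rspo3* and −0.79 for *Mgp*, which had 184, 173 and 168 TPM at P56. The skeletal muscle actin *Acta1* had 151, 165 and 173 TPM in P6 replicates 1 to 3 and was lowest in P6 replicate 1. The pericyte genes *Mcam* and *Cspg4*, which encode surface proteins, deviated by 0.06 each in P6 replicate 1, within the range of most tested genes. The part of the cell mix of this library in the values of the contractile genes was not tested.

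At P56 the genes did not share an order of the libraries. *Acta2*, *Tagln* and *Cnn1* were highest in P56 replicate 3, whereas *Myl9*, *Lmod1* and *Smtn* were highest in P56 replicate 1. P56 replicate 2 was below the age mean for all 6 genes, with log2 deviations from −0.30 to −0.05. In P56 replicate 3, the library that stood apart, *Cnn1*, *Tagln* and *Acta2* deviated by 0.19, 0.19 and 0.17, while the median of all tested genes was −0.12. Without P56 replicate 3 the log2 fold change was 0.92 for *Acta2*, 0.50 for *Tagln*, 0.65 for *Myl9* and 2.14 for *Cnn1*.

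**Figure D3:**
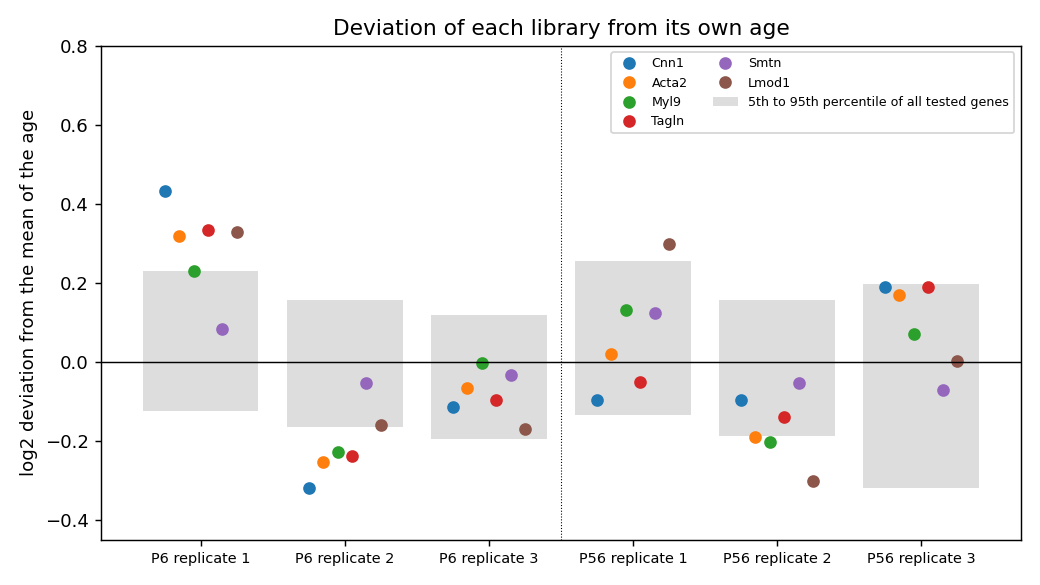
Log2 deviation of each gene's depth-scaled count from the mean of its own age (vertical axis) in each of the 6 libraries, with coloured points for the genes and grey bars for the 5th to 95th percentile of the 310 tested genes. All 6 genes are above 0 in P6 replicate 1 and below 0 in P6 replicates 2 and 3 and in P56 replicate 2.

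The 6 genes have short transcripts for this table. Their longest annotated coding transcripts are 1128 bp for *Myl9*, 1595 bp for *Tagln*, 2035 bp for *Acta2*, 2381 bp for *Cnn1*, 3386 bp for *Smtn* and 3948 bp for *Lmod1*, against a median of 6404 bp over 309 matched genes of the list. Length is reported because the trend with length differed between libraries. Its slopes ran from −0.06 log2 units per doubling of length in P56 replicate 3 to 0.08 in P56 replicate 1. The trend used a relative length, from count divided by FPKM, and log2 counts centred on each gene's mean over the 6 libraries. These centred values hold the age difference, so removing the trend may remove part of that difference too. With each library's trend removed, the log2 fold changes of *Cnn1*, *Acta2*, *Myl9* and *Tagln* were 1.96, 0.79, 0.52 and 0.33, and each remained past the threshold.

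Other genes of smooth muscle contraction did not share one direction. Of a list of 54 such genes, 12 were examined in the table and the other members, among them the myosin heavy chain *Myh11*, are not analysed here. By edgeR, *Dstn* and *Lpp* were higher at P6, *Tpm2* was lower, and 9 genes did not pass the threshold. Of all tested genes, 30.3% were higher and 33.5% lower. *Dstn*, which encodes the actin-severing protein destrin, had 275, 231 and 240 TPM at P6 and 170, 186 and 187 TPM at P56, with no overlap, and a log2 fold change of 0.57 (standard error 0.10, adjusted p = 0.000339 from edgeR). *Lpp*, a protein of focal adhesions, had a log2 fold change of 0.33 (standard error 0.11, adjusted p = 0.0169 from edgeR), and lost its call without P6 replicate 1 (0.29), without P6 replicate 2 (0.29) and with limma on log2(TPM + 1) (0.14) or log2(TPM + 0.1) (0.15).

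*Tpm2*, which encodes beta tropomyosin, a protein that winds along the thin filament, was lower at P6 at the recovered depth, opposite to *Acta2*. It had 124, 99.8 and 117 TPM at P6 and 139, 144 and 145 TPM at P56, with a log2 fold change of −0.30 (standard error 0.11, adjusted p = 0.0295 from edgeR). *Tpm2* lost its call without P6 replicate 2 (−0.20), P6 replicate 3 (−0.32) or P56 replicate 2 (−0.30), and also with median-of-ratios size factors (−0.29, adjusted p = 0.0533 from edgeR) or listed totals with TMM (−0.29, adjusted p = 0.061 from edgeR). With library sizes set equal its log2 fold change turned to 0.08, below the threshold, and 7 genes of the list were higher and 0 lower.

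The 9 genes that did not pass included abundant parts of the same machinery. *Myl6*, the essential light chain that pairs with *Myl9* on myosin, had 1057 ± 46.2 TPM at P6 and 1070 ± 94.5 TPM at P56 (SD, n = 3), with a log2 fold change of 0.09 (standard error 0.10). *Flna*, which encodes the actin crosslinker filamin A, had a log2 fold change of 0.23 (standard error 0.10). The adhesion proteins vinculin (*Vcl*) and talin (*Tln1*) had log2 fold changes of 0.14 and −0.11, with standard errors of 0.08 each. The median log2 fold change of the 12 genes was 0.09, beside −0.02 for all tested genes.

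**Figure D4:**
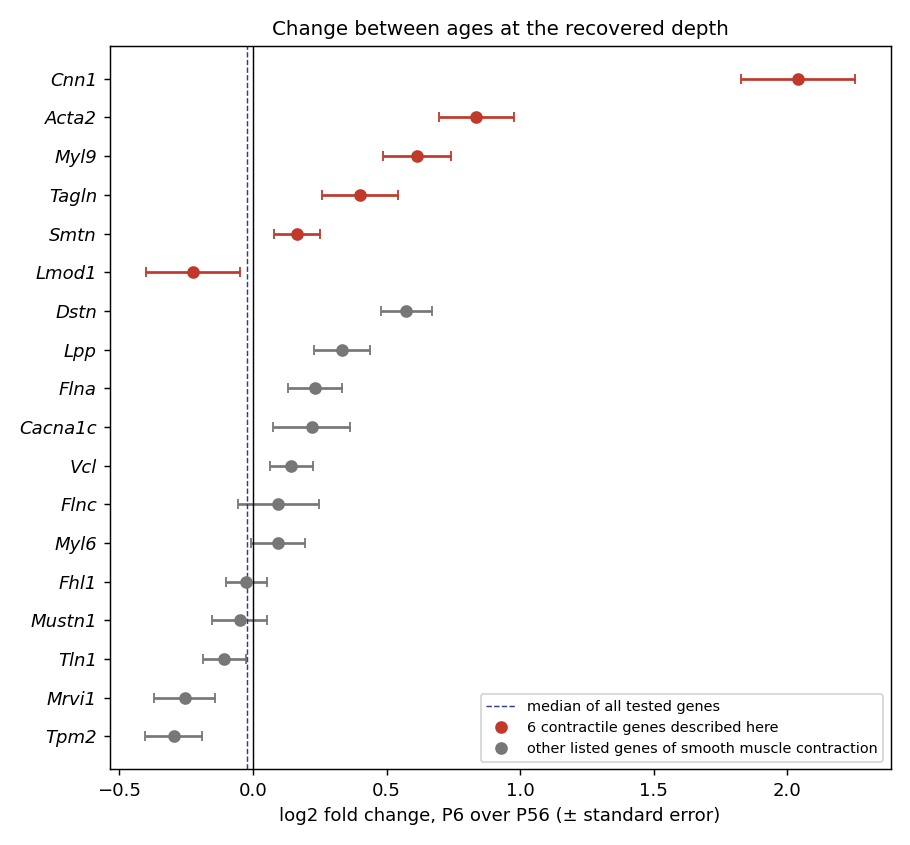
Log2 fold change of P6 over P56 (horizontal axis) with its standard error at the recovered depth, for the 6 contractile genes (red) and 12 other listed genes of smooth muscle contraction (grey). The 6 genes run from 2.04 for *Cnn1* to −0.22 for *Lmod1*, the grey points run from 0.57 for *Dstn* to −0.30 for *Tpm2*, and the dashed line marks the median of all tested genes.

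Of 25 regulators of smooth muscle genes, *Tead1* and *Mef2c* were in the table. Both were higher at P6 by edgeR, as were 30.3% of all tested genes. *Tead1*, a factor that binds CATTCC, had a log2 fold change of 0.47 (standard error 0.10, adjusted p = 0.00209 from edgeR), with 25.6, 28.1 and 20.7 TPM at P6 and 19.2, 19.5 and 18.5 TPM at P56. *Mef2c*, a transcription factor of muscle and of the endothelium, had a log2 fold change of 0.56 (standard error 0.09, adjusted p = 0.00029 from edgeR). Among the P6 libraries, *Tead1* was highest in replicate 2 and *Mef2c* in replicate 1.

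Of 12 pericyte genes, *Mcam* and *Cspg4* were in the table. *Mcam* had 214 ± 11.3 TPM at P6 and 115 ± 11.6 TPM at P56 (SD, n = 3), with a log2 fold change of 1.01 (standard error 0.11, adjusted p = 7.8e-06 from edgeR). *Cspg4* had a log2 fold change of 0.23 (standard error 0.16) and did not pass the threshold. The skeletal muscle genes *Acta1* and *Neb* were lower at P6, with log2 fold changes of −1.64 and −1.73, opposite in direction to *Acta2*. *Neb* was near the floor, with a mean of 0.187 TPM at P6 and 0.683 TPM at P56, against 163 and 551 TPM for *Acta1*. The part of these cell types in the values of the contractile genes was not tested.

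The genes outside the group were ranked by how closely they followed the contractile genes over the 6 libraries. The measure was the root mean square difference, in log2 units, between their centred depth-scaled counts and the mean of the 6 genes. This mean was 0.60, 0.11 and 0.23 in P6 replicates 1 to 3 and −0.24, −0.48 and −0.22 in the P56 replicates. It holds the age difference, so a gene can rank close through a similar difference between the ages alone. The closest were *Mical2* (0.113), *Dstn* (0.140), *Mef2c* (0.155), *Myom1* (0.156) and *Fzd5* (0.161), against a median of 0.424 over the 304 tested genes outside the group. Within the group the difference was 0.05 for *Myl9*, 0.11 for *Acta2*, 0.14 for *Tagln*, 0.27 for *Smtn*, 0.44 for *Lmod1* and 0.70 for *Cnn1*. *Cnn1* lay above the outside median of 0.424 and *Lmod1* close to it, although the 6 genes form the mean themselves. The 5 outside genes were picked as the closest, so their distances are no yardstick for the 6 genes. *Mical2*, which encodes an enzyme that oxidises actin, had 19.1, 16.3 and 14.8 TPM at P6 and 12.7, 10.9 and 10.6 TPM at P56. *Myom1*, which encodes a protein of the sarcomere's M band, had 8.82, 5.58 and 6.19 TPM at P6 and 6.39, 5.02 and 5.19 TPM at P56, and was highest in replicate 1 at each age.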

How the data were processed

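RNA of 3 P6 and 3 P56 libraries was sequenced by the authors on a BGISEQ-500 platform after poly(A) selection. Clean reads were aligned with HISAT and Bowtie2, and expression was quantified with a tool named RSEM in the submitters' processing notes. The paper names DESeq2 with a p-value limit for its differential genes, but no source used here gives the versions or the genome build. The deposited list is named as one of differential genes, but whether this rule chose its 312 genes is not stated. The authors deposited an estimated count per gene and library (not whole for 23 genes), TPM and FPKM. The columns of the authors' own comparison (ratio, p and q) were not used.

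Relative depth was the median ratio of count to FPKM over the 196 genes whose FPKM exceeded 5 in all libraries, because listed totals (497044 to 816309 counts) cover only 2.30% to 2.69% of a library's TPM. Counts were rounded and tested with edgeR 4.0.16 (R 4.3.3, quasi-likelihood test, no covariates, mean of at least 10 counts, 310 genes), and the fit was tested on simulated data. Standard errors come from the fold change and its F statistic. DESeq2 1.42.0 and limma 3.58.1 were alternatives. Pairwise correlations were not reported, since the libraries fall into 2 ages.

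The 6 genes and all gene lists were chosen with earlier results of these data known. For this reason p-values are given only for genes outside the 6. Those p-values share the limit, since the lists were known beforehand too, and are a description and no independent test. The genes named outside them are those nearest to the group mean and the listed members of the contraction, regulator and pericyte lists. *Rspo3*, *Mgp*, *Acta1* and *Neb* fall outside this rule and were chosen after their values were seen. Of the 22 fibroblast and matrix genes 3 were listed (2 higher at P6), of the 15 nonmuscle actin genes 7 (1 higher), and of the endothelial, lymphocyte and granulocyte, and nerve lists 0. Beside these counts, 30.3% of all tested genes were higher at P6. A gene of the contraction list is not reported here. Annotated transcript lengths are from GENCODE M21, matched by gene ID, and the length trend used the relative length from counts and FPKM. Promoter motifs were searched in the RefSeq windows on both strands.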

Additional observations from a re-analysis of the deposited data

How the results depend on the processing

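The difference between the ages was computed under 16 alternatives, all set in advance but with earlier results of these data known. *Acta2*, *Myl9* and *Cnn1* stayed higher at P6 and past the threshold in each, with log2 fold changes of 0.66 to 1.21, 0.49 to 0.98 and 1.75 to 2.41. *Tagln* was always higher, but missed the threshold without P6 replicate 1 (0.21), without P56 replicate 2 (0.33) and with limma on log2(TPM + 1) (0.26) or on log2(TPM + 0.1) (0.26). *Smtn* passed it with equal library sizes (0.53), median-of-ratios size factors, totals with TMM, the replicate block and without P56 replicate 1, and *Lmod1* passed it in none. With equal library sizes *Lmod1* turned to 0.14, the median of the 6 genes was 0.88 and 7 genes of the contraction list were called. In this setting 148 genes were higher and 34 lower, against 94 and 104 in the main fit. The greater depth of P6 stays in there, so the shift from the main fit towards P6 arises by construction. The split of all calls was 109 higher and 105 lower with median-of-ratios factors or TMM, and 74 higher and 109 lower with limma on log2(TPM + 1). Leaving out 1 library at a time gave 172 to 221 calls, 3 to 5 of the 6 genes, medians of 0.35 to 0.62 and 1 to 6 calls in the contraction list in place of 3, with 6 without P56 replicate 3, 2 without P6 replicate 3 or P56 replicate 2, and 1 without P6 replicate 2. That list had 5 calls with median-of-ratios factors, with TMM or with the replicate block. With the replicate block 213 genes were called, 5 of the 6 genes among them. Same-numbered libraries had correlations of 0.0967, 0.131 and 0.239 in their deviations across genes. The main fit did not pair them, because the paper names no covariate for its test. Depth limits *Cnn1* most, with 53 to 58 counts at P56.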
